A study of Mus musculus with 20 samples.

Results

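Messenger RNA of 34 genes that build excitatory postsynapses and hold synapses together was followed in the hippocampus of male C57BL/6 mice. The genes were taken by symbol from a list of scaffold and synaptic adhesion genes, and all 34 were present among the 47729 identifiers of the count table and among the 16692 genes with enough reads to be tested. The 20 libraries fell into 4 groups of 5 mice. Mice of 5 months (5mSC) and of 24 months (24mSC) were kept in standard cages. Other mice of 5 months (5mEE) and of 24 months (24mEE) lived in an enriched environment. The paper describes enriched cages with running wheels and tunnels but no 5mEE group, so the cages of the 5mEE mice are not known. The old mice entered the enriched cages late in life, and how long the 5mEE mice were enriched is not given in the sources used here. The labels name no transgene, and the tissue was whole hippocampus, so that each value is an average over neurons and glia of all subfields.

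The postsynaptic density is a protein mesh under the membrane of an excitatory synapse. Membrane-associated guanylate kinases, encoded by Dlg1 to Dlg4, bind glutamate receptors and adhesion molecules at its surface, SAPAP proteins (Dlgap1 to Dlgap4) link them to the Shank proteins below, and Shank binds Homer and, through cortactin, the actin of the spine. Across the cleft, presynaptic neurexins bind postsynaptic neuroligins and Lrrtm proteins, and Lrrc4, Slitrk and Cadm proteins form further bridges. Cttnbp2 is a cortactin-binding protein that maintains dendritic spines, Syndig1 is a membrane protein that regulates AMPA receptor synapses, and Iqsec1 and Iqsec2 are exchange factors for the small GTPase Arf6.

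The libraries held 11 to 34.1 M counts. The smallest count of any of the 34 members in any library was 151. The part of counting error in the spread of the lower members was not tested. Levels are given as CPM, the counts scaled to a common library size after correction for library composition. A pair of young standard-cage libraries stood apart. In 5mSC replicate 3, 26.8% of the counts lay in mitochondrial ribosomal RNA, against 0.883 to 1.82% in the other 19 libraries, and the weights limma gave 5mSC replicates 3 and 1 were 0.0777 and 0.19, against 0.687 or more elsewhere. The mean log2 CPM of the 34 genes was 6.62 in 5mSC replicate 3 and 6.91 in 5mSC replicate 1, below the 7.03 to 7.22 of the other 18 libraries. The mean of 11 pan-neuronal markers was low in replicate 3 only, with a mean log2 CPM of 8.29 against 8.98 to 9.25 in the rest. Results named below that rest on 5mSC are therefore also given without these libraries. The mean log2 CPM of hippocampal markers was at least 4.53 for dentate gyrus, 6.32 for CA1, 3.50 for CA2 and 4.09 for CA3 in every library.

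**Figure D1:**
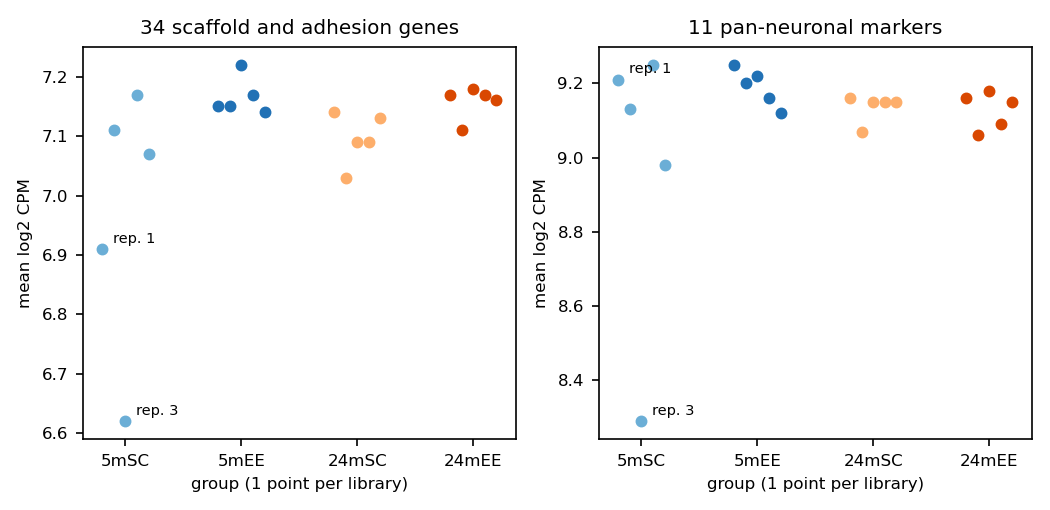
Mean log2 CPM of the 34 scaffold and adhesion genes (left) and of 11 pan-neuronal markers (right), 1 point per library, by group. Replicates 1 and 3 of 5mSC lie lowest for the 34 genes, at 6.91 and 6.62, and replicate 3 lies lowest for the neuronal markers, at 8.29.

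Per length of exon, the 34 genes spanned a wide range of levels, and the order within each family hardly varied among libraries. A family here means its members among the 34 genes, and shares are of their sum. The length is that of all annotated exons of a gene combined, and the order depends on it. By CPM alone, group means were higher for Dlgap1 (622 to 735) than for Dlgap3 (287 to 306). They were also higher for Dlg2 (382 to 463) than for Dlg3 (219 to 267), and for Homer2 (92 to 102) than for Homer3 (31.8 to 42.1). Dlg4, Shank1 and Nlgn2 led their families by CPM too. Dlg4, which encodes PSD-95, was the most abundant guanylate kinase with 63.6 ± 7.03 CPM per kb (SD, n = 20) and 43.9% of its family, followed by Dlg3, Dlg2 and Dlg1 in 20 of 20 libraries. Shank1 led its family with 64 ± 8.65 CPM per kb and 51.2%, above Shank3 and Shank2 in 20 of 20 libraries. Dlgap3 provided 44.8% of the SAPAP family and was the highest in 20 of 20 libraries, and Dlgap2 provided 7.14%. Among the Homer genes of the list, Homer3 exceeded Homer2 in 18 of 20 libraries, although 25.4% of the Homer3 exon bases are overlapped on the other strand by Ddx49 and the library kit did not keep strand.

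The adhesion families were as uneven as the scaffolds. Nlgn2, the neuroligin of inhibitory synapses, made up 82.2 ± 1.1% (SD, n = 20) of the neuroligin level per length, against 11.5% for Nlgn1 of excitatory synapses and 6.34% for Nlgn3. The Nlgn3 value is uncertain, since 41.2% of its exon bases are shared with the gene model Gm21986 on the same strand. Nrxn3 exceeded Nrxn2 in 20 of 20 libraries, with 86.2% of their sum. Lrrtm1 was the highest of its family in 20 of 20 libraries, with 60%, and Lrrtm4 had the lowest mean share, 6.09%. The Lrrtm4 value is uncertain, since 25.1% of its exons are overlapped by the other-strand gene Gm4409 and strand was not kept. Gm4409 held 0 to 4 reads, and how reads in the shared bases were assigned was not examined. Among the genes of the list, Lrrc4b led the Lrrc4 family, Slitrk3 the Slitrk genes and Cadm2 the Cadm genes in 20 of 20 libraries each. Slitrk and Cadm genes outside the list were not compared. Cadm1 provided 40.6% of the summed level of Cadm1 and Cadm2 in 24mSC and between 34.1 and 34.8% in the other groups.

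**Figure D2:**
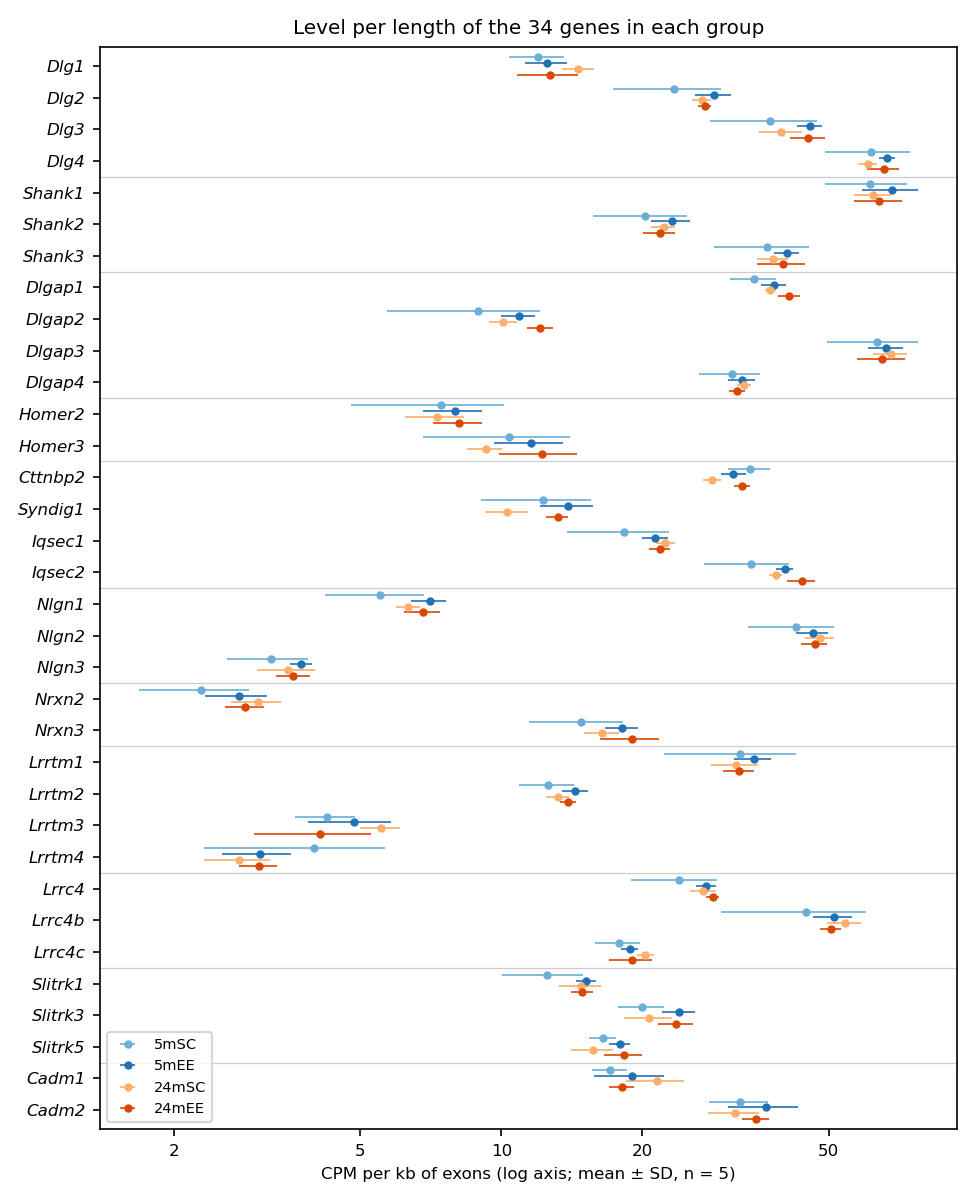
Level per length (CPM per kb of exons, log axis) of the 34 genes, as group mean ± SD of 5 libraries, with grey lines between families. Levels run from about the 2.73 CPM per kb of Nrxn2 to the 65.7 of Dlgap3 over all libraries.

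Most of the 34 are long genes, with a median of 7715.5 exonic bases against 4151 over all genes tested, and a median span of 137 kb against 21.8 kb. Over the 18 libraries without 5mSC replicates 1 and 3, their coefficient of variation had a median of 9.46% and ran from 5.16% in Dlgap4 to 20.9% in Lrrtm3. The median of the 7762 genes expressed at or above the lowest member was 7.46%. Dlgap4, Lrrc4, Lrrtm2 and Dlg2 were the steadiest members, all under 6%, and Lrrtm3 and Homer3 had the highest coefficients of variation, 20.9% and 20.4%. Between the lowest and the highest library, Lrrtm3 ranged 2.47-fold, Syndig1 1.88-fold, Cadm1 1.84-fold and Homer3 1.8-fold.

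In 5mSC replicates 1 and 3 most members were low, but not evenly. Against the mean of 5mSC replicates 2, 4 and 5, 30 of 34 members were lower in replicate 3, with a median log2 difference of -0.60 and a range from -1.23 in Lrrc4b to 1.18 in Lrrtm4. In replicate 1, 26 of 34 were lower, with a median of -0.22 and a range from -1.24 in Homer2 to 0.59 in Lrrtm4. Replicates 2, 4 and 5, each against the mean of the other 2, had 18, 9 and 24 members lower, with medians of -0.04, 0.12 and -0.06. By count alone, replicate 1 was thus close to replicate 5. Over all genes the median was -0.01 in replicate 3 and 0.01 in replicate 1. The 2950 tested genes with exons at least as long as the members' median differed by -0.12 in replicate 3 and -0.28 in replicate 1, and the 8316 genes shorter than the median of all genes by 0.09 and 0.15. Markers of other tissues were also highest in replicate 3. Their mean log2 CPM was 3.9 for choroid plexus, 4.06 for meninges and 4.86 for thalamus. Elsewhere it was at most 2.82, 3.62 and 3.78. The part of transcript length, of RNA quality and of tissue content in the member values was not tested.

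For aging under standard housing, 24mSC was compared with 5mSC. No member passed at an adjusted p of 0.05 by edgeR's quasi-likelihood test over all 20 libraries, where 134 of 16692 genes did (0.803%). At an unadjusted p under 0.05, 7 members were higher in 24mSC, against 8.72% of all genes, and 2 were lower, against 11.7%. In all, 25 of 34 members had a positive difference, with a median of 0.11 on the log2 scale, and over all genes the median was -0.01. Without 5mSC replicates 1 and 3, 11 of 34 differences were positive and the median was -0.04, and limma with library weights gave 14 of 34 and -0.01.

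Cttnbp2 had the smallest p of the 34. It lay on chromosome 6, 18366478 to 18514843 on the minus strand of GRCm38. Its CPM was 262, 303, 344, 283 and 308 in 5mSC and 260, 241, 233, 259 and 252 in 24mSC. Every old library lay below every young library, though the gap between 260 and 262 was narrow. The log2 difference was -0.27 ± 0.0732 (SE), a fold of 0.83, with an adjusted p of 0.0691. Among all genes, 1.56% had 24mSC entirely below 5mSC. The adjusted p was 0.024 without 5mSC replicates 1 and 3 (log2 difference -0.26), 0.00391 by DESeq2 and 0.0354 by limma with library weights. In an edgeR fit of only these 2 groups the adjusted p was 0.348, so that Cttnbp2 missed there. DESeq2 passed 4.55% of all genes and limma 1.83%. The spread common to all genes, as edgeR estimates it, was 17.4% over 20 libraries and 9.88% once 5mSC replicates 1 and 3 were left out.

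Syndig1, on chromosome 2 from 149829211 to 150004392 on the plus strand, moved the same way. It had 37.1, 30.8, 16.5, 34 and 32.7 CPM in 5mSC and 22.3, 26.7, 25, 29 and 23.5 CPM in 24mSC. The young value of 16.5, from replicate 3, was the only 5mSC value within or below the range of the old libraries. With all libraries the log2 difference was -0.27 ± 0.142 (SE, adjusted p = 0.283 by edgeR), and without 5mSC replicates 1 and 3 it was -0.37 ± 0.0931 (adjusted p = 0.0446 by edgeR). These 2 members were the only ones past the test without those libraries, both lower, where 1.14% of all genes were lower. The study's own lists of changed genes hold Cttnbp2 and Syndig1 and were drawn from mice that include these groups, so the direction here is not independent evidence.

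Cadm1, a homophilic adhesion molecule, had the next smallest p. Its CPM was 174, 202, 185, 174 and 160 in 5mSC and 223, 190, 230, 203 and 274 in 24mSC. The ranges overlapped at 190 to 202, and all 5 old libraries exceeded the young mean of 179. The log2 difference was 0.32 ± 0.11 (SE), and its adjusted p of 0.119 by edgeR missed the threshold, as did that of 0.149 without 5mSC replicates 1 and 3, where the difference was 0.33 ± 0.124.

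Single young libraries decided calls. Cttnbp2 passed without 5mSC replicate 1 (0.959% of genes past), 2, 3 (3.58%, with Syndig1) or 4 (2%), and missed without replicate 5. It also missed whenever a library of another group was left out instead. Without 5mSC replicate 2, 1127 genes passed (6.67%), among them Dlg1 and Lrrc4c. Their log2 differences were 0.35 ± 0.102 and 0.25 ± 0.0727, at adjusted p values of 0.0461 and 0.0423 by edgeR. Dlg1, the guanylate kinase SAP97, had 156 CPM in this library and 109 to 136 in the other 4 of 5mSC, against 144 to 174 in 24mSC. With neocortex markers as a covariate, described next, the log2 difference of Dlg1 with age over 20 libraries went from 0.28 to 0.03 ± 0.0845 and that of Lrrc4c from 0.19 to 0.05 ± 0.0748. Without 5mSC replicates 1 and 3 and with no covariate, they were 0.19 ± 0.107 and 0.17 ± 0.0808. Cttnbp2 was -0.29 ± 0.091, Syndig1 -0.29 ± 0.177 and Cadm1 0.28 ± 0.133 with the covariate. The adjusted p of Cttnbp2 was then 0.338 by edgeR, and 0.1 with dentate gyrus markers as the covariate instead. Syndig1, Dlg1 and Lrrc4c were chosen here after their values were seen.

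The levels of 7 genes that mark neocortex neurons, all of them above the filter, were not even across groups. Their mean log2 CPM was 4.81 to 5.20 in 24mSC. It was 4.41 to 4.50 in 4 of the 24mEE libraries and 5.03 in 24mEE replicate 2. In 5mSC it was 4.39 to 4.57 but for 5.09 in replicate 2, and in 5mEE 4.44 to 4.64 but for 4.96 in replicate 2. Striatal markers ran in parallel, at 3.47 to 3.74 in 24mSC and 2.90 to 3.47 in 24mEE, and 8 dentate gyrus markers ran the other way, at 4.53 to 5.59 in 24mSC and 5.52 to 5.78 in 24mEE. From 24mSC to 24mEE, 7 of 7 neocortex markers had a negative log2 difference (median -0.44) and none passed over 20 libraries. In whole tissue, fewer cells of a type and less RNA per cell cannot be told apart. Differences of named members are also given from a fit with the neocortex mean as a covariate.

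For enrichment in old age, 24mEE was compared with 24mSC. In the fit of all 20 libraries no gene passed, member or not (0%), and 1037 genes had an unadjusted p under 0.05. DESeq2 passed 31 genes and limma with library weights 379 (2.27%). At an unadjusted p under 0.05, 4 members were higher in 24mEE, against 2.22% of all genes, and 2 were lower, against 3.99%. These were Homer3, Cttnbp2, Syndig1 and Slitrk5 above and Lrrtm3 and Cadm1 below. In the fit of only these 2 groups, 187 of 16050 genes passed (1.17%), 61 of them higher in 24mEE (0.38%), and they included 2 members, Cttnbp2 and Syndig1.

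Cttnbp2 had 298, 302, 275, 280 and 289 CPM in 24mEE, and thus every enriched library lay above the highest 24mSC value of 260. The log2 difference was 0.21 ± 0.0731 (SE) over 20 libraries, with an adjusted p of 0.501 by edgeR, and 0.22 ± 0.0476 with an adjusted p of 0.0475 in the fit of the 2 groups. Syndig1 had 32, 31, 34.9, 33.8 and 31 CPM in 24mEE, again all above the highest 24mSC value, 29. Its log2 difference was 0.36 ± 0.141 (adjusted p = 0.627 by edgeR) over 20 libraries and 0.37 ± 0.0713 (adjusted p = 0.0316) in the fit of the 2 groups. Limma with library weights, over all 20 libraries, gave adjusted p values of 0.0282 for Cttnbp2 and 0.0253 for Syndig1. These were the only members whose groups did not overlap, 2 of 34, where 1.5% of all genes had 24mEE entirely above 24mSC.

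The 2-group calls were lost in most fits with fewer libraries. When each of the 10 libraries was left out in turn, the adjusted p of Cttnbp2 ran from 0.0343 to 0.146 and passed only without 24mEE replicate 2, and that of Syndig1 ran from 0.00979 to 0.105 and passed without 24mEE replicate 2 and without 24mSC replicate 4. The log2 differences ran from 0.19 to 0.23 and from 0.33 to 0.42.

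The levels of Cttnbp2 and Syndig1 in 24mEE were near those of young mice. Cttnbp2 averaged 289 CPM in 24mEE, 276 in 5mEE and 300 in 5mSC, against 249 in 24mSC. Syndig1 averaged 32.5, 34.2 and 30.2 CPM, against 25.3. Neither gene passed in 24mEE against 5mEE, where the log2 differences were 0.06 (95% interval -0.09 to 0.22) and -0.07 (-0.36 to 0.22), and 0.07 and -0.07 with the neocortex covariate. The age difference and the enrichment difference share the 24mSC libraries, so their opposite signs are not separate observations.

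**Figure D3:**
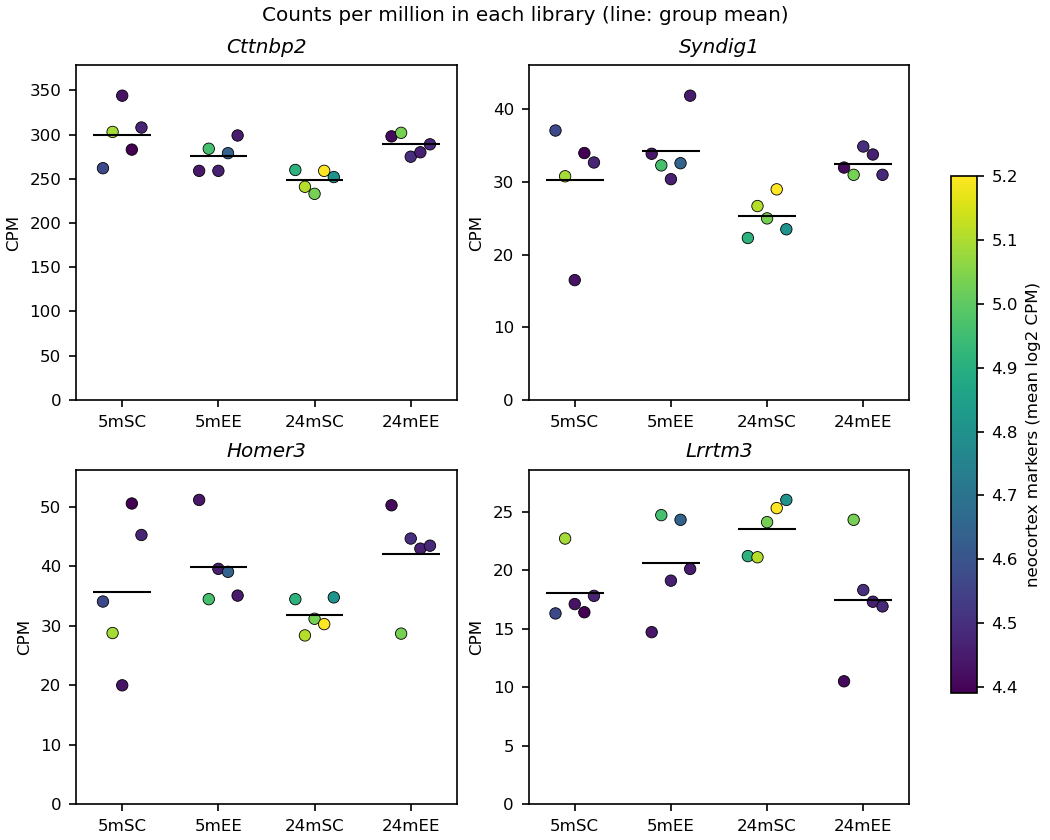
CPM of Cttnbp2, Syndig1, Homer3 and Lrrtm3 in each library by group, coloured by the mean log2 CPM of neocortex markers, with a line at the group mean. Cttnbp2 and Syndig1 are lower in all 24mSC libraries than in all 24mEE libraries, and in 24mEE the library with high neocortex markers departs from its group for Homer3 (28.7 CPM) and Lrrtm3 (24.3 CPM).

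Cttnbp2 and Syndig1 both passed in the fit of the 2 groups, though not in that of 20 libraries. The stretch before a RefSeq transcript start of each is therefore shown, on GRCm38.p6. The gene spans above are those of GENCODE, and in Syndig1 the RefSeq start lies inside that span, so that the stretch shown for it is not upstream of the whole gene model. Each is 250 bases written 5′ to 3′ on the gene's strand, with GC boxes (GGGCGG, sought on both strands) in capitals. That of Cttnbp2 is chr6:18514870-18515119 on the minus strand, with 66.8% G and C, and that of Syndig1 is chr2:149830533-149830782 on the plus strand, with 68%.
Cttnbp2: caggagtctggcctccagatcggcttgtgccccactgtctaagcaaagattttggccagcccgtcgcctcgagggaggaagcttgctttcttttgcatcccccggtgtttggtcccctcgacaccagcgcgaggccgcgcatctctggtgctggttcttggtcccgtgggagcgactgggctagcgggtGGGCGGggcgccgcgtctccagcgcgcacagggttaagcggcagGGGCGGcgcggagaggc
Syndig1: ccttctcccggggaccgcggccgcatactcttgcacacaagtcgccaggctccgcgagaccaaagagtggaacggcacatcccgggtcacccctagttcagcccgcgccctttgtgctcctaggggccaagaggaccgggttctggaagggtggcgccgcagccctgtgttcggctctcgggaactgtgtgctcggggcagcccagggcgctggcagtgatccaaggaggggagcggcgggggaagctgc
Cttnbp2 held 2 GC boxes and Syndig1 none. Such a box was present before a RefSeq start of 13 of the 27 members with an entry in the RefSeq table, and in 32.7% of 32851 entries overall. The cAMP response element TGACGTCA was in 0 of 27 members and 1.55% of all entries, and the E-box CACGTG was in 3 of 27, Cadm2, Dlg1 and Dlgap1, and 6.02% of all entries. A member counted where any of its entries held the motif, and Dlg1, for example, had 4 entries. The counts of members and the shares of entries are therefore unlike units. A match describes letters in this window and no more.

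Homer3, Lrrtm3 and Dlg1 differed in 24mEE replicate 2 from the rest of their group. Homer3, a Homer scaffold, had 50.3, 44.7, 43 and 43.5 CPM in 24mEE replicates 1, 3, 4 and 5 but 28.7 in replicate 2, against 28.4 to 34.8 in 24mSC. Lrrtm3, a neurexin ligand, had 10.5 to 18.3 CPM in those 4 enriched libraries but 24.3 in replicate 2, against 21.1 to 26 in 24mSC. Dlg1 had 122 to 138 CPM and 172 in replicate 2, against 144 to 174. In each case 24mEE replicate 2, the enriched library with high neocortex markers, lay within the range of the standard-cage mice. The part of neocortex tissue in these differences was not tested.

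With the neocortex mean as a covariate, the log2 difference of Homer3 between 24mEE and 24mSC went from 0.40 to 0.04 ± 0.196, that of Lrrtm3 from -0.43 to -0.11 ± 0.156, and that of Dlg1 from -0.20 to 0.05 ± 0.0848. Slitrk5, a transmembrane partner of presynaptic phosphatases, went from 0.23 to 0.10 ± 0.0876. The differences of Cttnbp2 (0.23 ± 0.092) and Syndig1 (0.38 ± 0.18) with the covariate were no smaller than without it, and Cadm1 went from -0.25 to -0.20 ± 0.135. No gene passed with the covariate (adjusted p = 0.999 for each of these members by edgeR). With dentate gyrus markers as the covariate, Cttnbp2 was 0.18 ± 0.082 and Syndig1 0.32 ± 0.163. Members other than Cttnbp2 and Syndig1 in this comparison were chosen after their values were seen.

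**Figure D4:**
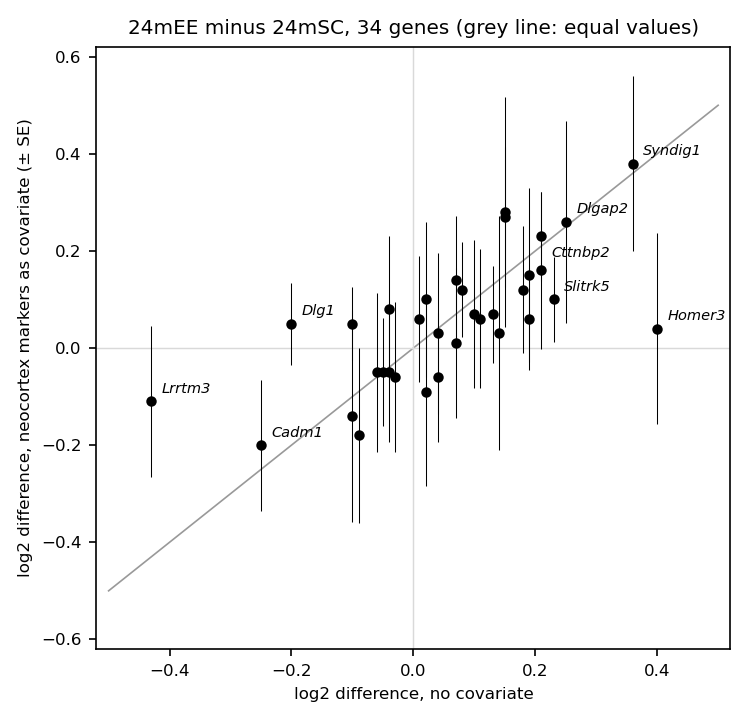
Log2 difference of 24mEE minus 24mSC for the 34 genes, without a covariate (horizontal) and with the mean of neocortex markers as a covariate (vertical, ± SE), over 20 libraries. Cttnbp2 and Syndig1 lie close to the line of equal values, and Homer3, Lrrtm3 and Dlg1 lie near 0 on the vertical axis.

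Without 24mEE replicate 2, the fit of the 2 groups passed 875 genes (5.41%) and 8 members. Homer3 (0.52), Syndig1 (0.38), Dlgap2 (0.30), Slitrk5 (0.28), Iqsec2 (0.23) and Cttnbp2 (0.20) were higher in 24mEE on the log2 scale, and Lrrtm3 (-0.58) and Dlg1 (-0.29) were lower. This fit was singled out after the values were seen. Homer3, Lrrtm3 and Dlg1 were described above by their departure in replicate 2, so their passing without it is no separate evidence. With any other library of the 2 groups left out, no member passed except Syndig1, without 24mSC replicate 4. The fitted log2 differences of 24mEE minus 24mSC over 20 libraries ran from -0.03 to 0.07 for Shank1, Shank2 and Shank3, none of which passed.

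**Figure D5:**
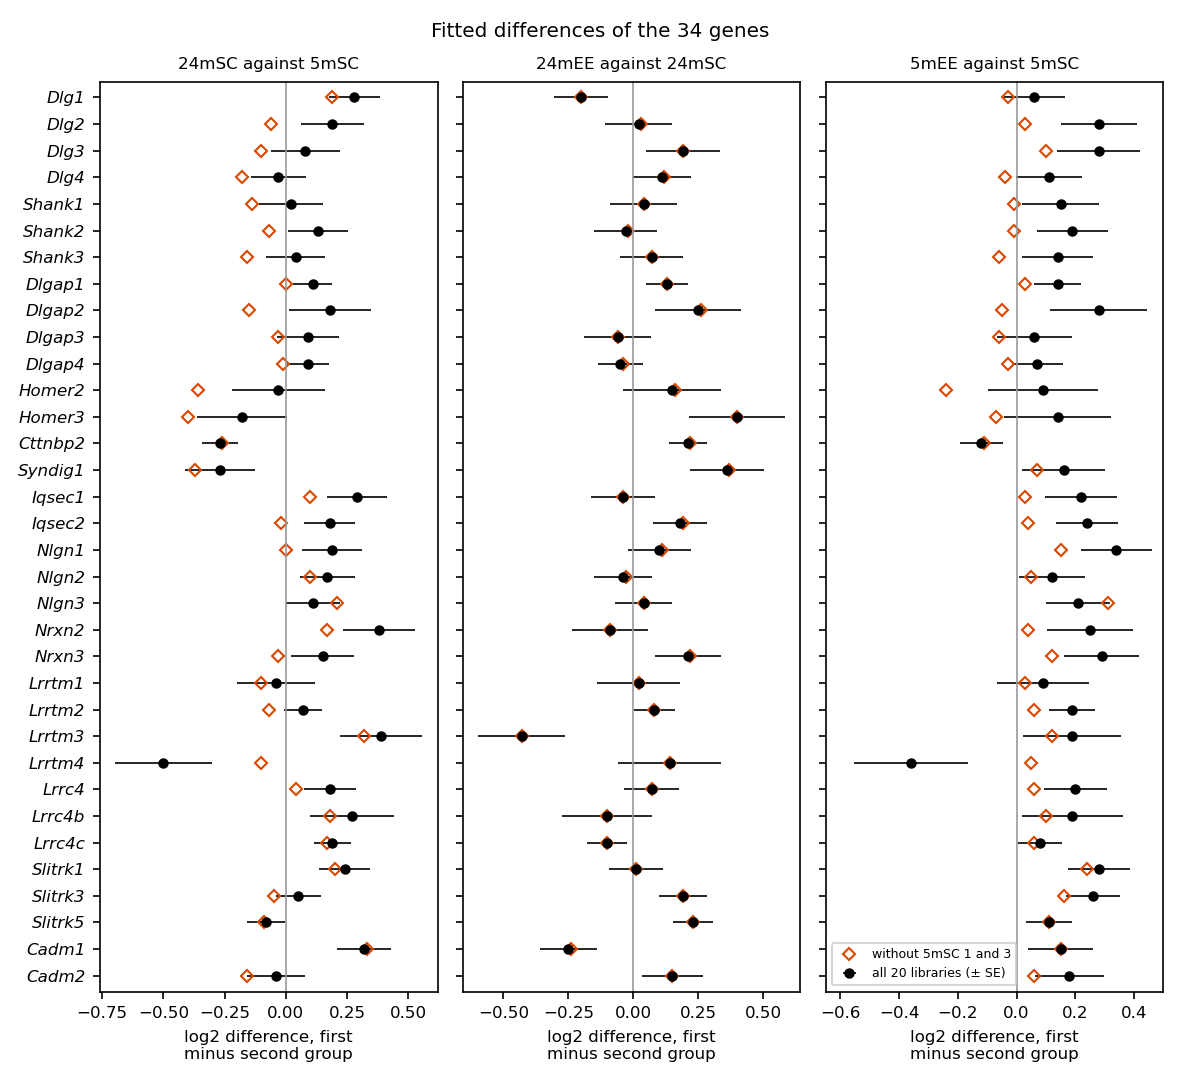
Fitted log2 differences of the 34 genes in 3 comparisons, from all 20 libraries (filled, ± SE) and without 5mSC replicates 1 and 3 (open). Most open points lie left of the filled ones in both comparisons with 5mSC (Lrrtm4 and Nlgn3 lie to the right), where the median of the members goes from 0.11 to -0.04 and from 0.17 to 0.05, and they nearly coincide for 24mEE against 24mSC.

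For enrichment at 5 months, 5mEE was compared with 5mSC. No gene passed (0%) with all libraries or without 5mSC replicates 1 and 3, while 2759 genes had an unadjusted p under 0.05 and DESeq2 passed 30, none of them members. Of the members 32 of 34 had a positive difference, with a median of 0.17 on the log2 scale, and 7 were higher at an unadjusted p under 0.05, against 6.52% of all genes. Without 5mSC replicates 1 and 3 the counts were 23 of 34 positive, a median of 0.05, and 2 members, against 2.28%. No member had groups that did not overlap, where 0.743% of genes had 5mEE entirely above 5mSC.

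Slitrk3, which binds a presynaptic receptor phosphatase at inhibitory synapses, had 82.9, 100, 89.7, 111 and 100 CPM in 5mSC and 122, 99.9, 119, 117 and 123 CPM in 5mEE. All enriched libraries but replicate 2 exceeded every standard-cage library. The log2 difference of 0.26 ± 0.092 (SE, adjusted p = 0.225 by edgeR) was 0.16 ± 0.091 without 5mSC replicates 1 and 3. Nlgn1, the neuroligin of excitatory synapses, had 68.1, 85.6, 47.7, 94 and 75.3 CPM in 5mSC and 101, 87.9, 105, 91.7 and 86.5 CPM in 5mEE. The lowest young values came from replicates 3 and 1. Its log2 difference was 0.34 ± 0.122 (SE, adjusted p = 0.225 by edgeR) with all libraries and 0.15 ± 0.0837 without these. With the neocortex covariate the differences were 0.26 ± 0.0853 for Slitrk3 and 0.34 ± 0.124 for Nlgn1.

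No difference between old and young enriched mice was detected in these genes. In 24mEE against 5mEE, 18 of 16692 genes passed (0.108%) and none was a member. In that fit of 20 libraries no member had an unadjusted p under 0.05, where 4.61% of all genes did. In the fit of the 2 groups Dlgap2 (log2 difference 0.16) and Iqsec2 (0.12) did, 2 of 34, where 11.3% of all genes did, and neither passed after adjustment. Over 20 libraries the log2 differences ran from -0.24 to 0.15 with a median of -0.02. The 95% intervals of all 34 members stayed within 0.58 of 0. Lrrtm3 had 14.7, 24.7, 19.1, 24.3 and 20.1 CPM in 5mEE and 10.5, 24.3, 18.3, 17.3 and 16.9 CPM in 24mEE, a log2 difference of -0.24 ± 0.166 (SE). Dlgap1, the most abundant SAPAP transcript by count, had 654, 632, 740, 703 and 691 CPM in 5mEE and 772, 669, 748, 731 and 756 CPM in 24mEE. Its log2 difference was 0.10 ± 0.0802 (SE). The adjusted p was 1 for each by edgeR. With the neocortex covariate the differences were -0.24 ± 0.129 for Lrrtm3 and 0.10 ± 0.0805 for Dlgap1.

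Whether enrichment acted differently at the ages was asked with an interaction term, the enrichment difference at 24 months minus that at 5 months. No gene passed by edgeR (0%), 1336 had an unadjusted p under 0.05, and DESeq2 passed 6. Of the members 1 was higher at an unadjusted p under 0.05, against 4.4% of all genes, and 2 were lower, against 3.61%. Cttnbp2 had the lowest p of all members, with a term of 0.33 ± 0.103 on the log2 scale (adjusted p = 0.62 by edgeR), from a difference of 0.21 in old mice and -0.12 in young mice. Without 5mSC replicates 1 and 3 the term was again 0.33, at an adjusted p of 0.331, and with neocortex markers as a covariate it was 0.35 ± 0.119. Lrrtm3 had -0.62 ± 0.236 (adjusted p = 0.621 by edgeR), -0.56 ± 0.254 without 5mSC replicates 1 and 3, and -0.30 ± 0.204 with neocortex markers as a covariate.

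Among 30 further postsynaptic density genes, 1 passed with age over 20 libraries and was lower, where 0.803% of all genes passed. Homer1, whose short form is induced by activity and uncouples the long forms, is not separated by form in gene counts. It had 209, 288, 195, 307 and 246 CPM in 5mSC and 138, 164, 145, 178 and 137 CPM in 24mSC. The groups did not overlap, and 1.56% of all genes had 24mSC entirely below 5mSC. The log2 difference was -0.71 ± 0.121 (SE, adjusted p = 0.00864 by edgeR), and -0.89 without 5mSC replicates 1 and 3 (adjusted p = 0.000215). The call was lost in the fit of the 2 groups (adjusted p = 0.171). It had 168 to 192 CPM in 24mEE. Akap5, an anchor of kinase A, had a log2 difference of 0.29 at an adjusted p of 0.0738, and 0.17 at 0.19 without 5mSC replicates 1 and 3. None of the 30 passed with enrichment at either age. The median log2 difference of these genes was 0.08 with age, which turned to -0.07 without 5mSC replicates 1 and 3, and 0.12 with enrichment in old mice.

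Among 42 further adhesion genes, 1 passed with age over 20 libraries and was higher, where 0.803% of all genes passed. In the fit of the 2 groups 1 passed with enrichment in old age and was lower, where 1.17% of all genes passed. Ntng1 encodes netrin-G1, the axonal ligand of the Lrrc4c protein. It had 40.1, 38.8, 43.2, 27.7 and 33 CPM in 5mSC and 54.3, 40.9, 55.1, 43.2 and 63.3 CPM in 24mSC, with ranges that overlapped. The log2 difference was 0.50 ± 0.115 (SE, adjusted p = 0.0433 by edgeR) and 0.64 (adjusted p = 0.012) without 5mSC replicates 1 and 3. The call was lost in the fit of the 2 groups (log2 difference 0.48, adjusted p = 0.292). Lrrc4c itself differed by 0.19 over 20 libraries (adjusted p = 0.167 by edgeR). Igsf21, an adhesion molecule of inhibitory synapses, had 25.1 to 31.9 CPM in 24mSC and 15 to 22.8 CPM in 24mEE, a log2 difference of -0.63 at an adjusted p of 0.0285 in the fit of the 2 groups and 0.37 over 20 libraries. Its highest enriched value was again in replicate 2. Of 5 scaffold genes of inhibitory synapses none passed in any comparison, and the smallest adjusted p was 0.145 over 20 libraries, for Iqsec3 with age (0.468 without 5mSC replicates 1 and 3).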

How the data were processed

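Hippocampal poly(A) RNA of 20 mice, 5 per group, was sequenced from unstranded libraries with 50-nt single-end reads. The authors deposited raw counts per Ensembl gene; per the submitters' processing notes, reads were extracted by bcl2fastq 1.8.2, aligned to GRCm38 by STAR 2.4.1d and assigned to genes by featureCounts 1.4.6-p4. The deposited length-scaled table was not used here. The sequencing run is not given in the labels. Symbols matched 98.9% of identifiers. Counts were tested with edgeR 4.0.16 (R 4.3.3; quasi-likelihood, TMM, genes kept by filterByExpr at minimum count 10, minimum total 15), over all 20 libraries and 4 groups, with Benjamini-Hochberg adjustment over all genes tested and a threshold of 0.05. Adjusted p values are from this fit unless another is named. Alternatives were a fit of the 2 groups compared, DESeq2 1.42.0, limma 3.58.1 with library quality weights, other filters, marker covariates and libraries left out. The scripts were tested on simulated data. Levels per length used CPM divided by the kb of all annotated exons of a gene combined. Animals of a group are separate mice. No libraries were identical.

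The members and lists were chosen with earlier results of these data known. Values per library are given for members that pass over 20 libraries, for up to 6 that pass in the fit of the 2 groups and, where none does, for the 2 with the lowest p. Other names were chosen after their values were seen.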

Additional observations from a re-analysis of the deposited data

Results flagged for a closer look

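Of 136 sets of 5 libraries (34 members in 4 groups), 6 held a library far from the other 4, where chance gives about 1 in 20. Their number was thus not above that rate. In 5mSC replicate 3, Dlg3 had 120 CPM against 231 to 261 in the rest of its group, and Lrrc4 had 60.4 CPM against 101 to 111. In 5mSC replicate 2, the young standard-cage library with the highest neocortex markers, Lrrtm3 had 22.7 CPM against 16.3 to 17.8. In 5mEE replicate 2, Slitrk3 had 99.9 CPM against 117 to 123. In 24mEE replicate 1, Dlg2 had 467 CPM against 431 to 441, and in 24mSC replicate 1, Dlgap1 had 702 CPM against 657 to 670.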

How the results depend on the processing

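No member passed over 20 libraries in any comparison. For 24mSC against 5mSC, 1 passed by DESeq2, 1 by limma with library weights and 2 without 5mSC replicates 1 and 3, and between 0 and 3 passed with a library left out. For 24mEE against 24mSC, 2 passed in the fit of the 2 groups and 2 by limma with library weights. In the fit of the 2 groups with a library left out, an alternative chosen after seeing the data, between 0 and 8 passed, with 8 without 24mEE replicate 2 and 1 without 24mSC replicate 4. In the other comparisons the count was 0 under every alternative run. For the members with a value in every library by rule, no log2 difference changed sign under these alternatives. With the neocortex covariate that of Dlg1 for 24mEE against 24mSC went from -0.20 to 0.05. Over all genes, 134 passed with age in the 20-library fit, 759 by DESeq2, 306 by limma, 3 in the fit of the 2 groups and 363 without 5mSC replicates 1 and 3. For 24mEE against 24mSC these counts were 0, 31, 379, 187 and 10, and for 24mEE against 5mEE 18, 39, 162, 52 and 97. DESeq2 passed 30 genes for 5mEE against 5mSC and 6 for the interaction, where edgeR passed 0. The cause was not tested. No paired analysis was possible because the animal numbers in the labels differ between groups.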
